A study of Homo sapiens with 12 samples.

Results

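The m6A peaks present in all 4 peak lists of rapamycin-treated and control oral squamous cell carcinoma (OSCC) cells were described here. A member was a peak of the HSC3 control list whose exonic blocks overlapped, by at least 1 bp on the same strand, a peak in each of the HSC3 rapamycin, CAL33 control and CAL33 rapamycin lists. The rule kept 304 of the 3930 HSC3 control peaks, 7.735% (95% Wilson interval 6.94 to 8.61), which lay in 272 genes. The members were chosen by their presence in the lists, that is by the enrichment over input behind each call, so their fold enrichments are given as a description and were not tested.

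The MeRIP-seq part of the study immunoprecipitated RNA with an anti-m6A antibody and sequenced it beside its input. HSC3 and CAL33, established OSCC cell lines, were grown for 3 days with 100 nM rapamycin, an mTOR inhibitor used to induce autophagy, or without it, and each of the 4 conditions had 1 immunoprecipitated and 1 input library. The depth of these libraries is unknown here, and no peak value has a replicate. RNA-seq was done on 2 rapamycin libraries (18492273 and 18763045 counts) and 2 control libraries (21653290 and 23763098 counts). The labels place both rapamycin RNA-seq libraries in HSC3 and both control RNA-seq libraries in CAL33, whereas in MeRIP-seq number 1 is HSC3 and number 2 is CAL33.

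The RNA-seq libraries stood apart by their number and not by their label. KRT17, a basal keratin, was at 4.895 and 5.05 CPM (counts scaled to library size) in the number 1 control and rapamycin libraries and at 1346 and 2119 CPM in the number 2 libraries. TP63, the squamous lineage factor, was at 19.7 and 13.5 CPM against 333 and 353 CPM. KRT5 was at 34.2 and 6.1 CPM against 1703 and 327 CPM, while CDH1 (333.5 and 304 against 180.1 and 221 CPM) and EPCAM (272 and 218 against 165 and 157 CPM) were higher in the number 1 libraries. The cell line of an RNA-seq library was therefore not assigned, and its number was used as a block beside the fit without it. The 10 squamous markers summed to 1533 and 1307 CPM in the number 1 libraries and to 5493 and 4436 CPM in the number 2 libraries, with KRT14 at 0 in both number 1 libraries. Of these markers, KRT5 (log2 fold change -2.43), KRT6A (-5.46) and KRT14 (-2.85) fell with rapamycin with the block (edgeR adjusted p = 6.06e-06, 0.00374 and 0.0327), none was called by edgeR without it, and their part in the changes of other genes was not tested. PTPRC, COL1A2, COL3A1 and DCN were at 0 in every library. The 8 fibroblast markers summed to between 8.87 and 47.1 CPM, mostly COL1A1, and the 8 leukocyte and endothelial markers to between 1.735 and 45.6 CPM.

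The mark m6A is a methyl group on the adenosine base, placed within transcripts and not at their cap. It is written by the METTL3 and METTL14 heterodimer with adaptors such as WTAP and RBM15, removed by FTO and ALKBH5, and read by YTH domain proteins, of which YTHDF2 directs mRNA to decay. Peaks of m6A are known to gather in long exons and around stop codons, and methylated adenosines usually sit within short motifs that contain GGAC.

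Sequence was available only where a member reached into a RefSeq promoter window (250 bases before to 50 after a gene start, GRCh38.p14), which was the case for 8 members. The members below are shown because the letters GGAC, in capitals, fell inside the part that could be read. They are written 5′ to 3′ on the strand of the transcript.
PIAS1 (exon, chr15:68187767-68187796, plus strand): acaaacaggagcagcacGGACacggcatcc
ZC3H11A (exon, chr1:203797290-203797319, plus strand): agaaaattggaagGGACcttaaagccctct
JUNB (CDS, chr19:12792480-12792600, plus strand): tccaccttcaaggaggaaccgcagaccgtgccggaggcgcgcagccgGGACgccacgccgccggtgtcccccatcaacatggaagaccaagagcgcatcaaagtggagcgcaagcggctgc
ARID1A (CDS, chr1:26696490-26696655, plus strand): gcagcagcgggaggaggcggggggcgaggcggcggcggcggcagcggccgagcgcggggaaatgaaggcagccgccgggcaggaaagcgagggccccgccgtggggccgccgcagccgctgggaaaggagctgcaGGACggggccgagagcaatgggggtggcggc

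The GGAC of PIAS1, a SUMO ligase, lay within a peak of all 4 lists. That of ZC3H11A, an mRNA export protein, lay within a peak of 3 lists, and those of JUNB, an AP-1 subunit, and ARID1A, a subunit of the SWI/SNF chromatin remodeller, within a peak of 2 lists. ZBED6 shares the ZC3H11A stretch, and the peak met there was assigned to ZBED6 in the HSC3 rapamycin and CAL33 control lists. ZC3H11A had RNA-seq counts of 2 and 0 in the control and 0 in both rapamycin libraries and was not tested. No GGAC was found on the transcript strand in the readable 18 bases of U2AF2, 40 bases of ARF6 or 164 bases of CEBPB. As background, GGAC was present in 31.4% of 35116 RefSeq promoter windows cut to the 103 readable bases of PIAS1 (52.9% on either strand). It was present in 25.2% cut to the 79 bases of ZC3H11A (44.2%), in 35.9% cut to the 121 bases of JUNB (58.45%) and in 45.25% cut to the 166 bases of ARID1A (69.45%). A match is no evidence of methylation at that adenosine.

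Most HSC3 control peaks were found nowhere else. Of the 3930, 2099 (53.4%) overlapped no peak of another list, 986 overlapped 1 other list and 541 overlapped 2 other lists. Of the HSC3 control peaks, 28.2% overlapped the HSC3 rapamycin list, 25.8% the CAL33 control list and 21.8% the CAL33 rapamycin list, which is also the order of the list lengths. Of the CAL33 control peaks, 25.1% overlapped the CAL33 rapamycin list, the shortest, and 29.5% the HSC3 rapamycin list, the longest. Of the CAL33 rapamycin peaks, 29.9% overlapped the CAL33 control list, 29.2% the HSC3 rapamycin list and 28.2% the HSC3 control list. Lists of 1 line thus did not always share the most, and the order differed by the list counted from. Counted from the other lists, the peaks present in all 4 were 325 of 3952 in HSC3 rapamycin (8.22%), 310 of 3625 in CAL33 control (8.55%) and 316 of 3079 in CAL33 rapamycin (10.3%).

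The overlaps were mostly broad. The smallest of a member's 3 overlaps had a median of 180 bp, and 242 members (79.6%) overlapped at least 50% of the shorter peak in all 3 comparisons, taking the counterpart with the longest overlap (243 with any counterpart). A single base common to the 4 lists was found in 286 members. A false discovery rate under 0.05 in all 4 lists at once was found for 280 members (92.1%). The 304 members covered 291 separate stretches, since 25 overlapped another member, as with CLDN4, MALAT1, NEAT1, H2AFX and ZNF623, or were assigned to 2 overlapping genes, as with SRXN1 and AL121758.1. In 71 members more than 1 peak of another list overlapped, and the peak with the longest overlap was then used.

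At the limit of the rule, 14 members shared only 1 base with a peak of at least 1 list. Just inside were ABALON (exon, 1 bp), ARID1B (CDS, 1 bp) and ASXL1 (CDS, 1 bp), with HSC3 control fold enrichments of 16.4, 44.9 and 30.6. Just outside were peaks of AC091167.3 and TAF7, 6 bp and 19 bp from a peak of the HSC3 rapamycin list. A peak of AC090617.4 lay 27 bp from a peak of the CAL33 control list. TAF7 also held a member, through another CDS peak. Of the 541 peaks that lacked 1 list, 86 had a peak within 200 bp in that list.

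By the region class in the list, 131 members lay in the coding sequence (CDS, 43.1%, 95% Wilson interval 37.65 to 48.7), 99 in the 3′UTR (32.6%, 27.5 to 38.02), 67 in an exon with no finer class (22.04%, 17.7 to 27.03), 6 in the 5′UTR and 1, of ZBTB7B, at a stop codon. The other 3626 HSC3 control peaks had 41.1% in the CDS, 35.6% in the 3′UTR, 19.4% in an exon and 3.67% in the 5′UTR. Each of these 4 shares lay within the interval of the members, which for the 5′UTR ran from 0.908 to 4.24%. The region was the same in all 4 lists for 275 members (90.5%), of which 120 were CDS, 91 3′UTR, 60 exon and 4 5′UTR. The gene was the same in all 4 for 294.

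Protein-coding genes held 285 members (93.75%), lincRNA genes 9 and antisense genes 6. The noncoding members included 3 peaks in MALAT1, 2 in NEAT1, the scaffold RNA of paraspeckles, and 2 in NORAD, an RNA that binds Pumilio proteins. One member was MT-RNR2, the mitochondrial large ribosomal RNA, whose reads can be split with the nuclear copy MTRNR2L12, itself a member.

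**Figure D1:**
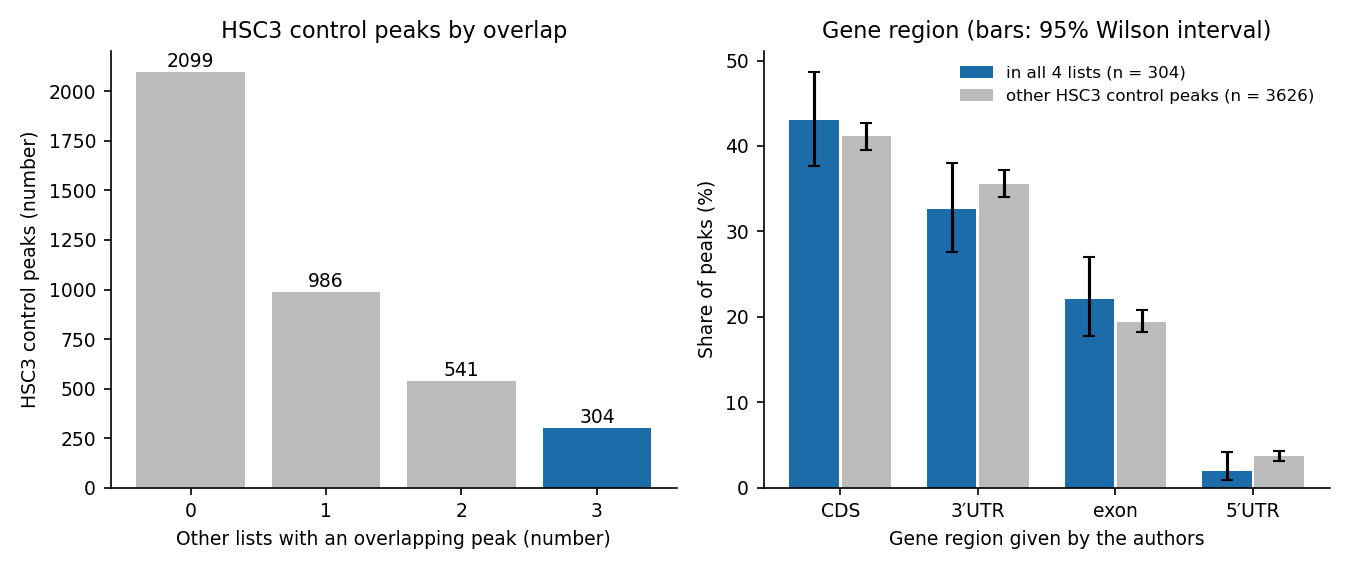
Left, number of HSC3 control peaks (y axis) by how many of the other 3 lists held an overlapping peak (x axis), with the members in blue. Right, share of peaks in each gene region (%) for the 304 members and the 3626 other HSC3 control peaks, with 95% Wilson intervals as error bars that overlap in all 4 regions.

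The members were longer and had stronger p-values than other peaks but were not more enriched. The median exonic length was 300 bp in members (interquartile range 211 to 419) and 210 bp in the other HSC3 control peaks (180 to 240). The median log10 p-value was -86.25 against -16.7. The median fold enrichment over input was 35.35 against 33.6, a middle rank in the list. Ranked within each list, where a percentile of 100 is the highest fold enrichment, the members had a median percentile of 51.4 in HSC3 control, 50.8 in HSC3 rapamycin, 52.5 in CAL33 control and 53.0 in CAL33 rapamycin. Ranked by p-value, the same medians were 87.6, 88.0, 87.9 and 85.2.

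The share of HSC3 control peaks that were members differed by p-value, exonic length and RNA-seq level. A longer peak meets a 1 bp rule more easily, and the part of length in these differences was not tested. With the peaks cut into 5 equal groups, it was, from the weakest to the strongest p-value, 2.545%, 3.82%, 3.18%, 6.36% and 22.8%, and from the shortest to the longest exonic length 2.67%, 3.82%, 3.69%, 4.58% and 23.9%. By fold enrichment the groups ran from 6.997% to 8.91% with overlapping intervals. By the mean RNA-seq CPM of the gene the share was 2.93% in the lowest group and 14.5% in the highest.

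**Figure D2:**
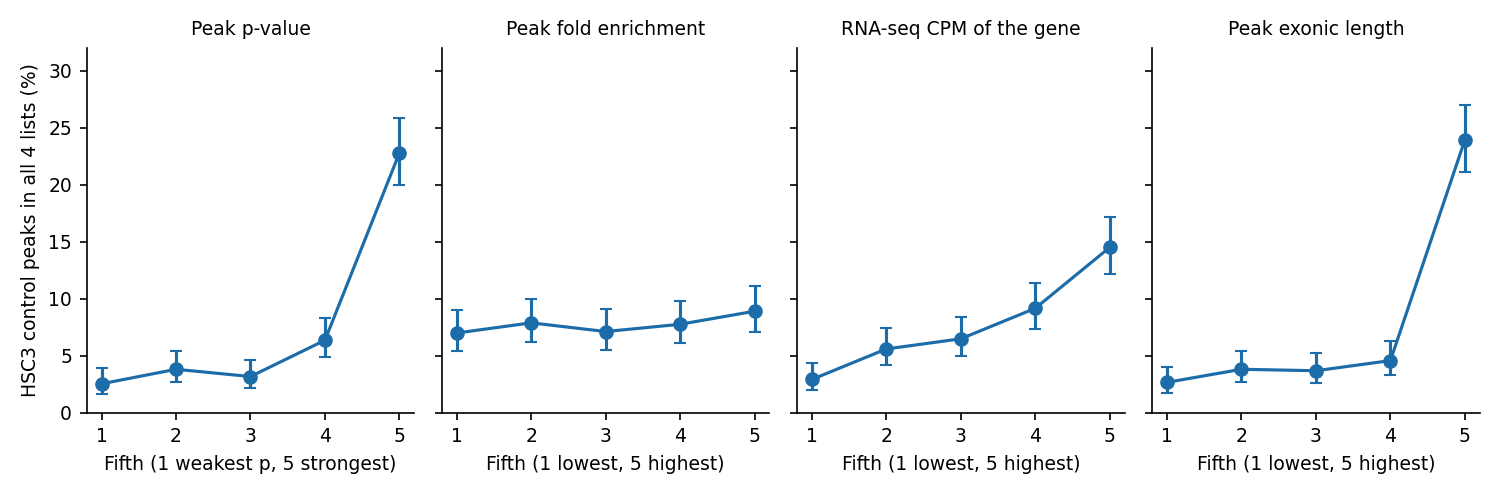
Share of HSC3 control peaks that were present in all 4 lists (y axis, %) in 5 equal groups of the 3930 peaks by p-value, fold enrichment, mean RNA-seq CPM of the gene and exonic length (x axes). Points are shares with 95% Wilson intervals, and the share runs from 2.545% to 22.8% by p-value but only from 6.997% to 8.91% by fold enrichment.

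By the rule a member met a peak in each of the 4 lists, but its rank was seldom kept. The range of a member's percentile over the lists had a median of 50.7 points (interquartile range 36.3 to 67.6). It exceeded 50 points in 154 members and was under 20 in 26. Only 11 members were above the 75th percentile of all 4 lists and 11 below the 25th of all 4, while 206 were on both sides of the list median. Across the 304 members, Spearman's rho of the percentiles was 0.345 between HSC3 control and HSC3 rapamycin, 0.272 between CAL33 control and CAL33 rapamycin, 0.365 between the controls of both lines and 0.227 between their rapamycin lists. These points share libraries within a list and some share a peak, so rho is a description only. Peaks of unrelated genes could also hold the same fold enrichment in a list, such as 17.0 in CAL33 control for KLF13, JUNB, MAFK and ZNRF3. Input reads per peak were not analysed here, and the part of low input in these ranks and ratios was not tested.

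Of the 10 members whose lowest percentile was highest, DDX23, an RNA helicase of the spliceosome, led with a 3′UTR peak (chr12:48829854-48830153) at fold enrichments of 892, 122, 2190 and 238 in HSC3 control, HSC3 rapamycin, CAL33 control and CAL33 rapamycin. CREB1, the cyclic AMP response factor, had a 3′UTR peak (chr2:207596969-207597328) at 168, 209, 815 and 491 in the same order. DIDO1, a PHD finger protein, had its longest CDS peak (chr20:62879147-62880226) at 852, 194, 358 and 121. In each of these the rapamycin list was below the control list of the same line except for CREB1 in HSC3.

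The rest of this group were PWWP2B, a chromatin protein (303, 113, 924 and 281), SIN3A, the scaffold of a histone deacetylase complex (363, 106, 187 and 142), and JUN, an AP-1 subunit (460, 231, 160 and 421). They also included IRS4, an insulin receptor substrate (695, 900, 204 and 99.1), SPRED2, an inhibitor of Ras signalling (123, 115, 489 and 113), KLHL36, a Kelch-like protein (559, 90.2, 292 and 876), and IPMK, an inositol phosphate kinase (207, 89.8, 267 and 136). All 10 stayed at or above a percentile of 77.45 in every list. IRS4 was an exception in RNA-seq, where its counts were 0 in both control libraries and 2 and 0 in the rapamycin libraries, too few to be tested.

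Of the 5 members whose highest percentile was lowest, ACTB, cytoplasmic actin, had an exonic peak (chr7:5527599-5527748) at 1.66, 2.5, 2.07 and 2.47. PLEC, the linker protein plectin, had a CDS peak at 1.80, 3.49, 1.90 and 3.86. PDIA4, a disulfide isomerase, was at 6.94, 4.42, 7.90 and 3.85, FIGNL1, a recombination ATPase, at 8.52, 3.26, 2.66 and 1.86, and CCPG1, a receptor for autophagy of the endoplasmic reticulum, at 6.02, 4.85, 10 and 4.65. These 5 peaks stayed at or under a percentile of 15.74 in every list.

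The widest ranges belonged to ZCCHC3, TSPYL1, WDR91 and AFF1. ZCCHC3, a nucleic acid binding zinc finger protein, had a CDS peak (chr20:298106-298465) at 69.2, 1420, 8.71 and 1.86, so that its percentile was 66.3, 99.9, 14.5 and 0.552. TSPYL1, a nucleosome assembly family protein, had a 3′UTR peak at 140, 405, 3.33 and 983. WDR91, an endosomal protein, had a 3′UTR peak at 33.6, 509, 187 and 4.26. In AFF1, a scaffold of the super elongation complex, a CDS peak (chr4:87114872-87115232) was at 348, 5.47, 328 and 710. Each was near the top of 1 or more lists and near the bottom of another.

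**Figure D3:**
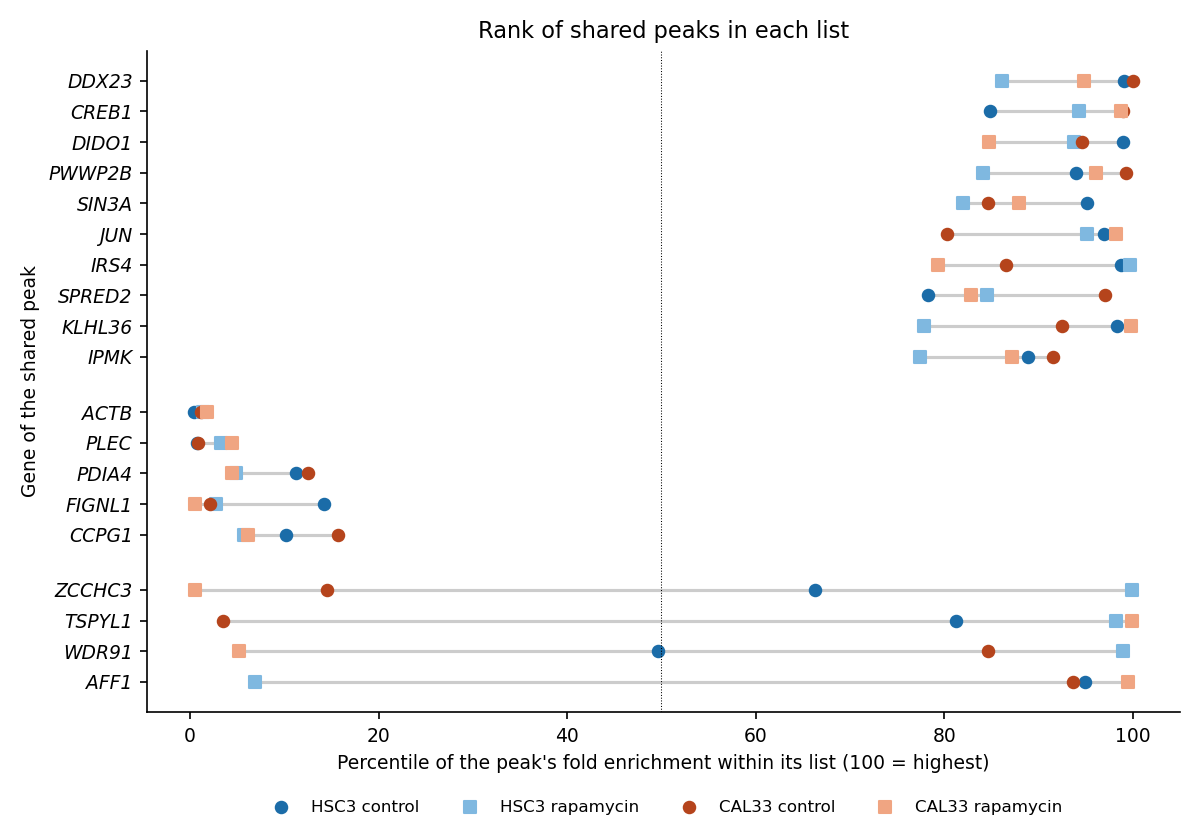
Percentile of fold enrichment within each list (x axis, 100 the highest) for named members (y axis), 1 point per list and a grey line over the range. From top to bottom are the 10 members whose lowest percentile was highest, all at or above 77.45, the 5 whose highest percentile was lowest, all at or under 15.74, and the 4 shown of the widest range.

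As listed, the fold enrichment was lower with rapamycin in both cell lines in 105 members, higher in both in 59 and of opposite direction in 140. The median log2 ratio of the rapamycin to the control fold enrichment was -0.22 in HSC3 and -0.45 in CAL33, and ratios were centred on these medians, which makes the numbers above and below 0 equal. The centred ratios had an SD of 2.40 over members in HSC3 and 2.51 in CAL33. They had the same sign in both lines in 150 members and opposite signs in 154 (50.7%). At 2-fold or more, 38 members were higher and 33 lower with rapamycin in both lines. Spearman's rho between the ratios was 0.012 over the 304 members.

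DNAJC14, a J-domain chaperone, had the highest value of its smaller ratio, with a CDS peak (chr12:55827747-55828256) at 15.3 and 245 in HSC3 control and rapamycin and at 12.7 and 228 in CAL33. Next were CEP170B, a relative of the centrosomal protein CEP170 (13.1 to 180 and 8.21 to 316), and MAVS, the mitochondrial antiviral adaptor (7.01 to 77.9 and 3.19 to 40.2). At the other end were MT-RNR2 (3490 to 324 and 1760 to 41.3) and MSL2, a ubiquitin ligase of a histone acetyltransferase complex (84.1 to 11.3 and 420 to 30.1). With 1 pair of libraries per condition, none of these differences could be tested.

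Between cell lines, the CAL33 to HSC3 ratio, centred in the same way, had the same sign with and without rapamycin in 148 members and opposite signs in 156 (51.3%). As listed, the value was higher in CAL33 under both conditions in 80 members and lower in 69. Higher in CAL33 under both conditions were SRXN1, sulfiredoxin, with the overlapping AL121758.1 (15.2 and 3.19 in HSC3 against 211 and 163 in CAL33), and PANX1, a channel protein (154 and 21.9 against 1760 and 212). Lower in CAL33 were UTP15, a ribosome assembly factor (1430 and 315 against 12.4 and 10.7), RDH14, a retinol dehydrogenase (236 and 217 against 10.6 and 9.38), and WNT7B, a Wnt ligand (50.5 and 134 against 5.47 and 13.8). These comparisons and those with rapamycin use the same 4 lists.

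**Figure D4:**
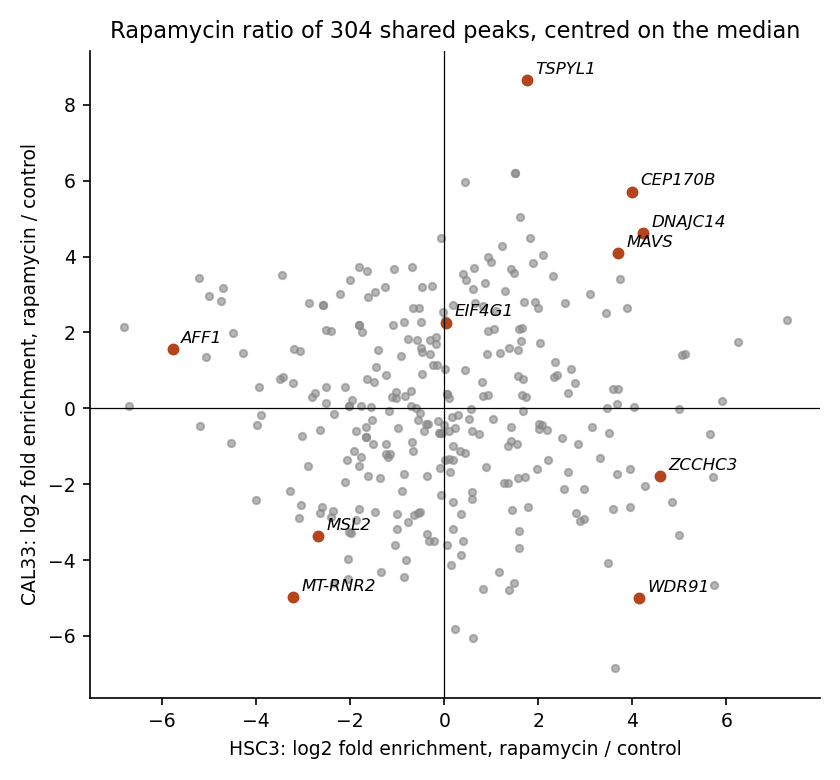
Log2 ratio of rapamycin to control fold enrichment in HSC3 (x axis) and CAL33 (y axis), each centred on the median of the 304 members, 1 point per member, with named members in red. The points fill all 4 quadrants, 75 with both ratios above 0, 75 with both below, which the centring makes equal, and 154 with opposite signs.

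Of the 272 genes, 246 had 1 member and 26 had 2 or more. PHF3, a PHD finger protein that binds RNA polymerase II, had 3 separate CDS peaks. In HSC3 control and rapamycin they were at 344 and 376, 7.94 and 407, and 32.3 and 83.4. In CAL33 control and rapamycin the same peaks, each lower with rapamycin, were at 117 and 12.5, 58.2 and 49.3, and 52.1 and 2.99. DIDO1 also had 3 CDS peaks. PITX1, a homeobox factor, had 2 3′UTR peaks and 1 CDS peak, and the 3′UTR peaks met the same CAL33 control peak at 7.53. The EGF receptor gene EGFR had 2 3′UTR peaks (chr7:55205458-55205907 and chr7:55205967-55206566) at 7.32 and 52.5 in HSC3 control and at 12.5 and 132 in CAL33 rapamycin. SDC1, the proteoglycan syndecan 1, had 2 3′UTR peaks, of which 1 was at 21.0 and 241 in HSC3 and at 34.4 and 270 in CAL33, and the other at 15 and 24.6 and at 3.72 and 3.50. As listed, peaks of 1 transcript thus differed in level and in direction between lists. With 1 pair of libraries per condition, these differences could not be tested.

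Other genes with several members were AFF1, ARHGAP5, B3GNT5, CEBPB, CLDN4, CPTP, FBXW7, FEN1, H2AFX, JUNB, MALAT1, NEAT1, NORAD, NOTCH2, PDP1, RBM15, SETD5, TACC2, TNKS1BP1, TSPYL1 and ZNF623. In 9 of the 26 genes, EGFR, PITX1, JUNB, NOTCH2 and SETD5 among them, members that did not overlap each other met 1 broad peak in at least 1 other list, so their values there are the same value.

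The m6A machinery itself held members. WTAP, the adaptor of the writer complex, had a 5′UTR peak (chr6:159726512-159726751) at 289 and 46.5 in HSC3 control and rapamycin and at 528 and 53.6 in CAL33. RBM15, which recruits the complex, had 2 CDS peaks (chr1:110340182-110340511 and chr1:110340751-110341200), the first at 186, 109, 431 and 46.7 and the second at 80.2, 38.8, 76.1 and 69.7. YTHDF2 had a CDS peak (chr1:28743547-28743816) at 19.2, 17.2, 133 and 126. Relative to the median ratio of the members, WTAP (-2.41 in HSC3 and -2.86 in CAL33) and the first RBM15 peak (-0.55 and -2.76) were lower with rapamycin in both lines. The second RBM15 peak was at -0.83 and 0.32 and YTHDF2 at 0.063 and 0.37 on this log2 scale, although their fold enrichments as listed were all lower with rapamycin. Of the 8 writers, 10 readers and 2 erasers that were tested for mRNA, 2, 1 and 0 had a member, beside 1.63% of all tested genes. METTL14, followed in the study, had a peak in 1 list only and was not a member.

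The gene lists were chosen with earlier results of these data known, so their shares are a description only. Genes induced early by growth factors, with the AP-1 family, often held members. Members lay in 8 of the 18 genes of this list that had any HSC3 control peak (44.4%), against 9.06% of all 3003 genes with a peak. These were JUN, JUNB, FOSL2, MAFK, CEBPB, IER2, IER3 and IER5. JUN (chr1:58781628-58782258) was at or above a percentile of 80.3 in every list. IER5 was at 149, 1550, 664 and 76.9 and IER2 at 544, 62.8, 166 and 42.9, both above the median of each list, whereas both CEBPB peaks (14.9, 10.1, 18.9 and 10.5 in the 3′UTR) were below it.

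RNA-binding and splicing proteins held members in 12 of 51 genes with a peak (23.5%), among them DDX23 and RBM15. ZC3H11A was counted too, by the stretch that ZBED6 shares. Inhibitors that feed back on signalling held 5 of 15 (33.3%). These were SPRED2, SOCS6 (224, 27.3, 68.1 and 61.6) and SOCS4 (39.3, 30.1, 29.8 and 48.2), which restrain cytokine signalling, ZNRF3, which removes Wnt receptors (165, 139, 17.0 and 72.3), and DUSP5, an ERK phosphatase (11.4, 12.9, 260 and 16.8).

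Other lists lay nearer to the share of all genes with a peak. Chromatin regulators held 7 of 59 (11.9%), namely ARID1A, ARID1B, ASXL1, ASXL2, KAT6A, PHF3 and SETD5. KAT6A, a histone acetyltransferase, had a CDS peak at 14.6, 1950, 33.2 and 122, higher with rapamycin in both lines. Wnt, Notch, TGF-beta and Hippo genes held 3 of 23 (13.04%), which were NOTCH2, WNT7B and JAG1, a Notch ligand (20.3, 172, 487 and 144). Ubiquitin ligases and their relatives held 8 of 88 (9.09%), among them RNF168, a ligase of the DNA damage response (92.5, 238, 62.5 and 196), FBXW7, MDM4, USP1, USP10 and USP22. Solute carriers held 4 of 42 (9.52%), which were SLC7A5 and SLC7A1, amino acid carriers, SLC2A1, the glucose carrier, and SLC38A10. Small GTPases and their regulators held 4 of 51 (7.84%), which were ARHGAP21, ARHGAP5, ARHGEF12 and RAP2B. Zinc finger factors held 9 of 162 (5.56%), led by ZNF146, ZBTB7B, ZNF131 and ZNF518A. Keratin and junction genes held 1 of 10, which was PLEC. None was found in the 7 cytosolic ribosomal protein genes, 4 respiratory chain genes, 2 fibroblast marker genes or 1 squamous marker gene with an HSC3 control peak.

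Genes with a member gave more RNA-seq reads than other genes with a peak. Their mean CPM over the 4 libraries had a median of 83.45 (interquartile range 33.25 to 173), against 37.25 for the other 2731 genes with an HSC3 control peak and 19.15 for all 15826 tested genes. The median was 70.7 and 80.8 CPM in the control libraries and 72.2 and 76.4 CPM in the rapamycin libraries, so the order of the gene sets was the same in each. These are reads per gene and not per length. The genomic span of these genes had a median of 27.95 kb over 263 matched genes, against 31.7 kb for the other genes with a peak and 27.6 kb for all tested genes.

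The RNA-seq comparison asked whether the mRNA of these genes changed with rapamycin. Of the 272 genes, 258 passed the filter on low counts and 14 did not. Without the block, the quasi-likelihood test of edgeR, with p-values adjusted by Benjamini-Hochberg, called 0 of 15826 genes (0.0%) and therefore 0 of the 258, with 446 of all genes and 18 of the 258 at an unadjusted p under 0.05, while DESeq2 called 36 genes, of which 1, JUNB, held a member. With the replicate number as a block, edgeR called 1290 of 15826 genes (8.15%), 736 higher (4.65%) and 554 lower (3.5%). Of the 258 genes it called 36 (13.95%), 18 higher and 18 lower (6.98% each), beside 253 of the 2523 other genes with a peak (10.03%). The part of the higher read number in this share was not tested.

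On average the mRNA of these genes hardly moved. The median log2 fold change with the block was -0.10 for the 258 genes, -0.09 for the other genes with a peak and 0.05 for all tested genes. In the same-numbered pairs, 116 of the 258 (45.0%) were lower with rapamycin in both and 75 (29.1%) higher in both, beside 40.55% and 27.7% of the other genes with a peak and 31.8% and 34.6% of all tested genes. Fewer cells of a kind and less RNA per cell cannot be told apart in such bulk libraries. The 2 libraries of a group differed widely by number, and nothing states that a number stands for more than 1 culture per treatment. Without the block, p-values measure the spread between the 2 libraries of a group (common dispersion 0.636). With the block, they measure how far the 2 same-numbered pairs differ in their change (common dispersion 0.061).

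The 18 genes that rose with the block included early growth factor genes. JUNB rose from 86.9 and 81.0 CPM in the number 1 and number 2 control libraries to 238 and 327 CPM in the rapamycin libraries (log2 fold change 1.73 ± 0.27 SE, edgeR adjusted p = 0.000467 with the block). KLF13, a Krüppel-like factor, went from 34.1 and 6.25 to 108 and 23.3 CPM (1.77 ± 0.29, edgeR adjusted p = 0.000951). IER3, an immediate early survival gene, went from 184.9 and 42.5 to 407 and 174 CPM (1.58 ± 0.28, edgeR adjusted p = 0.00157). In each of these both pairs moved up, and for KLF13 and IER3 the number 1 control library stood above the number 2 rapamycin library, so that the groups overlapped. Without the block, leaving out 1 library moved the log2 fold change of KLF13 between 0.18 and 3.33 and that of IER3 between 0.59 and 2.71.

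NEAT1 went from 84.3 and 254 to 364 and 458 CPM (1.48 ± 0.30, edgeR adjusted p = 0.00623 with the block) and PDGFA, a growth factor, from 2.725 and 11.9 to 7.415 and 32.8 CPM (1.45 ± 0.38, edgeR adjusted p = 0.0177). The levels of PDGFA in the groups overlapped, and those of NEAT1 did not. Without the block, the log2 fold change of PDGFA was -0.0073 when rapamycin replicate 2 was left out. That of NEAT1 moved between 0.63 and 2.28 when 1 library was left out. The other rises were WNT7B, CLIP2, MT-RNR2, DUSP5, CEBPB, UBALD2, STC2, VEGFA, SLC7A5, MAFK, IER2, CHMP1B and CTDSP2. VEGFA encodes the vascular growth factor, and SLC7A5, the large neutral amino acid carrier, went from 1328 and 6336 to 2732 and 12040 CPM. In the list of early growth factor and AP-1 genes, 15 of 35 tested genes rose and 0 fell with the block, beside 4.65% and 3.5% of all tested genes, with a median log2 fold change of 0.96 beside 0.05. None of the list was called by edgeR without the block. Among the list genes with a member, DESeq2 called JUNB only, and DESeq2 calls among the other list genes are not given here. Of the 8 list genes with a member, 5 rose (JUNB, IER3, CEBPB, MAFK and IER2), while JUN (0.55), FOSL2 (0.77) and IER5 (0.29) did not pass. The list was chosen with earlier results of these data known, so its share is a description only.

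Of the 18 genes that fell, U2AF2, the large subunit of a splicing factor that binds polypyrimidine tracts, went from 521.5 and 454 to 247 and 119 CPM (-1.51 ± 0.28 SE, edgeR adjusted p = 0.00184 with the block). FEN1, a flap endonuclease of DNA replication, went from 276 and 174 to 146 and 43.9 CPM (-1.45 ± 0.29, edgeR adjusted p = 0.00388). HSPA1A, an inducible HSP70 whose reads can be split with its near-identical copy HSPA1B, went from 199 and 91.7 to 51.9 and 50.6 CPM (-1.40 ± 0.29, edgeR adjusted p = 0.00505). The groups did not overlap for these 3 genes. Leaving out 1 library, without the block, moved the log2 fold change of FEN1 between -2.38 and -0.65 and that of HSPA1A between -1.97 and -0.90.

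MRPL27, a mitochondrial ribosomal protein, went from 60.3 and 33.0 to 26.1 and 12.9 CPM (-1.28 ± 0.30, edgeR adjusted p = 0.00926 with the block) and FAM83D, a spindle protein, from 135.5 and 133 to 48.5 and 72.0 CPM (-1.18 ± 0.26, edgeR adjusted p = 0.00706). Further falls were those of HSPA14, TARDBP, CDK12, DDX23, SGO2, CHAF1A, HEXIM1, USP1, PPP4R3A, EIF4G1, FOXM1 and SON. CDK12 is a kinase of transcription elongation and FOXM1 a factor of the cell cycle. In the list of RNA-binding and splicing proteins, 19 of 204 tested genes fell and 5 rose with the block, beside 3.5% and 4.65% of all tested genes, with a median log2 fold change of -0.39 beside 0.05. None of the list was called by edgeR without the block. Of its 12 genes with a member, 11 were tested and 3 fell, which were DDX23 (-1.09), TARDBP (-1.17) and SON (-0.81). This list too was chosen with earlier results of these data known.

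All 36 changes had the same direction in both same-numbered pairs and the same sign without the block, at sizes between 0.81 and 1.77 on the log2 scale. The blocked fit that chose these genes favours pairs that agree, so this agreement is a description only. Without the block their edgeR adjusted p was 0.9997 each, and over all alternatives other than the block it was between 0.00179 (JUNB, DESeq2) and 0.9999.

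EIF4G1, the scaffold of the translation initiation complex and the gene the study followed, had a member in the CDS (chr3:184321584-184321973) at 4.32, 3.79, 9.63 and 33.9. It ranked at percentiles of 6.23, 3.53, 15.3 and 48.7, with a smallest overlap of 31 bp, so by fold enrichment it ranked low in HSC3 and nearest to the list median in CAL33 rapamycin. By p-value it ranked at percentiles of 84.02, 62.03, 95.75 and 97.6. Its mRNA went from 1548 and 2032 to 957 and 1019 CPM (-0.84 ± 0.26 SE, edgeR adjusted p = 0.0467 with the block and 0.9997 without it). METTL14 mRNA was at 19.2 and 20.9 CPM in the control and 20.1 and 19.3 CPM in the rapamycin libraries (-0.02 ± 0.33, edgeR adjusted p = 0.976 with the block), and its sign turned with upper-quartile scaling (0.056). Of the 8 writers, 2 erasers and 10 readers tested, 0, 1 and 1 were called with the block, beside 8.15% of all tested genes. ALKBH5 fell (-0.94, edgeR adjusted p = 0.0266 with the block) and IGF2BP2 rose (0.89, edgeR adjusted p = 0.0316), neither with a member. The other eraser, FTO, did not pass (0.22, edgeR adjusted p = 0.659 with the block). None of these m6A genes passed edgeR's test without the block. WTAP (-0.43), RBM15 (-0.21) and YTHDF2 (-0.13) did not pass either way.

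**Figure D5:**
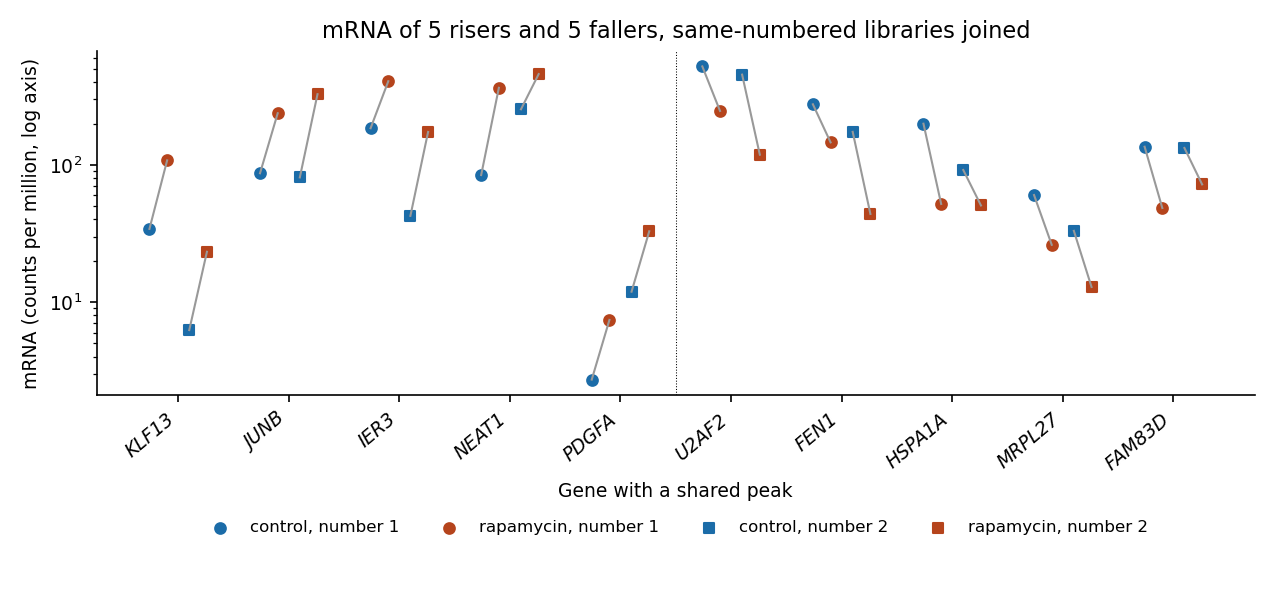
mRNA level (y axis, CPM, log axis) of the 5 genes with a member that rose most and the 5 that fell most with the replicate block (x axis), with same-numbered control (blue) and rapamycin (red) libraries joined. Every line of the left 5 genes goes up and every line of the right 5 goes down. Number 1 and number 2 differ in level for several genes, KLF13, IER3, PDGFA and NEAT1 among them.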

How the data were processed

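MeRIP-seq peaks were called by the authors on each immunoprecipitation and input pair, per the labels on hg38. The deposited lists hold for every peak its fold enrichment (a ratio to input) together with its p-value and false discovery rate as log10. The submitters' processing notes name cutadapt 2.5, HISAT2 2.1.0, featureCounts 1.6.3 and HOMER 4.10.4, and the peak caller and its settings are not given in the sources used here. For RNA-seq the authors deposited a raw count per gene for 58302 identifiers, of which 57532 matched a symbol. Members and gene lists were chosen with earlier results of these data known.

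Overlaps were computed on exonic blocks in Python 3.11.15 with scipy 1.17.1, with Wilson intervals that cover counting error only, and positions count from 1. Counts were tested over 15826 genes (filterByExpr) with TMM and edgeR 4.0.16 in R 4.3.3 (glmQLFit and glmQLFTest), Benjamini-Hochberg adjusted p under 0.05. CPM uses TMM library sizes. Pairing was checked. The number 1 minus number 2 difference correlated at 0.885 between rapamycin and control libraries across genes, which are not independent, and log2(CPM + 0.5) at 0.970 and 0.957 within a number against 0.810 to 0.856 for the other pairs. The MeRIP-seq numbering, where a number marks a cell line, is the source of the pairing, and the RNA-seq cell line labels go against it. Alternatives were the replicate block, DESeq2 1.42.0, upper-quartile scaling, other filters, libraries left out and other overlap rules. Tests were first run on simulated data.

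Named are the 10 members with the highest lowest percentile, the 5 with the lowest highest, the 5 widest ranges, the 3 highest and 3 lowest of each ratio, genes with 2 or more members, the 3 just inside and 3 just outside the overlap rule, members of the gene lists (4 of longer lists), the 5 largest mRNA rises and falls, EIF4G1 and METTL14. Other called members were named after their values were seen. A few items that the rule names are not reported here.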

Additional observations from a re-analysis of the deposited data

Results flagged for a closer look

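In 3 of the 5 members with the widest range of percentile, the rapamycin to control ratio of fold enrichment went opposite ways in the cell lines. The log2 ratios are centred on the median of the members, and with 1 pair of libraries per condition the difference was not tested. ZCCHC3 was at 4.58 in HSC3 and -1.78 in CAL33. WDR91 was at 4.14 in HSC3 and -5.01 in CAL33. AFF1 was at -5.77 in HSC3 and 1.56 in CAL33 for its CDS peak. Opposite signs were found in 154 of the 304 members, so the direction alone does not set these 3 apart.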

How the results depend on the processing

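The number of members stayed between 243 and 325 when the overlap rule, the strand rule, the authors' thresholds or the starting list changed. It was 457 without the HSC3 rapamycin list, 472 without the CAL33 control list and 524 without the CAL33 rapamycin list, and 594 genes had a peak anywhere in all lists. The CDS and 3′UTR shares were recomputed only for the 50% overlap, 1 base common to all lists and the 2 thresholds. These were a false discovery rate under 0.05 and a fold enrichment of at least 4. The shares stayed within their intervals in each. The median percentile became 87.6, 88.0, 87.9 and 85.2 when peaks were ranked by p-value. Calls of mRNA depended on the replicate block, which treats same-numbered libraries as paired. With it 1290 genes and 36 genes with a member were called (36 also with 1 gene per separate footprint, chosen after seeing the data), with DESeq2 36 and 1, and with the other settings 0 and 0. The median log2 fold change of genes with a member was -0.032 with upper-quartile scaling, -0.16 with no filter and between -0.23 and -0.090 with a library left out. Without the block, single libraries moved the log2 fold change by over 1.5 times for several named genes. KLF13 ran from 0.18 without rapamycin replicate 1 to 3.33 without control replicate 1, IER3 from 0.59 to 2.71 without the same libraries, NEAT1 from 0.63 without control replicate 1 to 2.28 without control replicate 2, and FEN1 from -2.38 without rapamycin replicate 1 to -0.65 without rapamycin replicate 2. HSPA1A was at -0.90 and MRPL27 at -0.82 without control replicate 1. PDGFA ran from -0.0073 without rapamycin replicate 2 to 2.87 without control replicate 2. METTL14 turned to 0.056 with upper-quartile scaling and 0.0060 with at least 10 counts in every library, and ran from -0.14 without control replicate 1 to 0.035 without control replicate 2. The causes were not tested. CPM per kilobase of transcript was not run, since transcript lengths were not analysed here. Peak libraries have unknown depth and no replicate, which limits every fold enrichment, and the block rests on 2 pairs.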

Other observations

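More genes carried a peak in all 4 lists than carried it at the same place. Of 594 genes with a peak anywhere in each list, 271 held a member and 323 did not. The second set included 3 further parts of the m6A writer complex, VIRMA, ZC3H13 and RBM15B. VIRMA mRNA was at 103 and 118 CPM in the control and 71.5 and 85.0 CPM in the rapamycin libraries, ZC3H13 at 90.05 and 118 against 75.5 and 70.6 CPM, and RBM15B at 81.0 and 117 against 65.7 and 102 CPM. All 3 were lower in both same-numbered pairs, and none passed edgeR's test with the block (adjusted p = 0.228, 0.246 and 0.587) or without it (0.9997 each). It also included MYC, KLF5, SFN and COL1A1. MYC mRNA rose from 188 and 158 to 608 and 249.5 CPM (log2 fold change 1.18, edgeR adjusted p = 0.0119 with the block and 0.9997 without it).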
